A study of Homo sapiens with 15 samples.

Results

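In HEK293T cells, an adenovirus-transformed human embryonic kidney line, siRNAs against 2 factors linked to processing bodies (P-bodies) were set against siRNAs against 2 genes that the study used as unrelated controls. The contrast takes 12 of the 15 arrays. On the P-body side are 3 arrays of cells transfected with siRNA against LOC550643, the transcript of the NoBody microprotein, and 3 with siRNA against Dcp2, the decapping enzyme. On the other side are 3 arrays with siRNA against DcpS, the scavenger decapping enzyme, and 3 with siRNA against GAPDH, a glycolytic enzyme. The remaining 3 arrays carry a non-silencing siRNA with no human target and serve here as a reference point. All 5 groups, the non-silencing one included, received actinomycin D, a transcription inhibitor, at 1 ug/mL for 4 hours, starting 48 hours after transfection. LOC550643 was silenced with a pool of 4 siRNAs. Total RNA was hybridised to Affymetrix arrays, and every level below is a deposited log2 value.

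Most messenger RNAs in human cells lose their poly(A) tail and are then either decapped and degraded from the 5′ end, or degraded from the 3′ end by the exosome. DCP2 removes the cap in the first route, together with activators such as DCP1A, EDC3, EDC4 and DDX6, many of which gather in P-bodies, and XRN1 then degrades the body of the message. DcpS acts in the other route, on the short capped piece that the exosome leaves. Transcripts of immediate early genes such as JUN and MYC are known for fast decay, and they are also induced quickly by stress.

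Members were chosen by siRNA label alone. For each gene, represented by the probe set with the highest mean over the 15 arrays, the mean of the LOC550643 and Dcp2 group means was compared with the mean of the DcpS and GAPDH group means. A gene was called when limma's adjusted p (Benjamini-Hochberg over 14884 genes) was under 0.05. It was said to agree when both P-body group means lay on the same side of both unrelated group means. Below, a gene that rose or fell was higher or lower with the P-body siRNAs than with the unrelated siRNAs, whatever its non-silencing level. Nothing in the labels says that the 3 replicates of a group were separate cultures. The p-values below are thus against the spread of these arrays alone, and that spread may be technical. With 2 siRNAs on each side, an exact two-sided permutation test over the 4 siRNA means could not go below p = 0.333. Fewer cells and less RNA per cell cannot be told apart in such bulk samples.

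The array medians of the deposited values lay between 4.01 and 4.08, and no pair of arrays held identical values. These medians say little about depth of signal, since the deposited values were taken to be normalized. Correlations over all probe sets were 0.983 to 0.991 within groups and 0.981 to 0.991 between groups. The leading axis of variation within groups took 24.7% of the within-group variance, and the scores on it averaged 4.32 on the P-body side and -1.5 on the unrelated side. The lowest scores belonged to non-silencing replicate 1 (-20.2), DcpS replicate 1 (-16.7) and GAPDH replicate 2 (-11.5). Of the line's markers, VIM, PAX2 and IRS4 were measured and none was called. VIM averaged 7.86 to 8.45 over the groups and IRS4 8.27 to 9.44, well above the array medians, while the fibroblast markers LUM and DCN averaged 2.33 to 3.64. The blood markers CD68 and LYZ and the 5 epithelial and liver markers were not called either. Adding the axis score as a covariate gave 908 calls, against 773 without it. The score was taken from the spread within the groups of these same arrays, so fitting it narrows that spread. The count therefore does not show what the axis contributed. Whether the axis contributed to the differences described below was not tested beyond the fits without those 3 arrays.

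The 2 targets with a named probe set came first. DCP2 read 6.23, 6.42 and 6.36 on the Dcp2 siRNA arrays. The LOC550643 siRNA arrays gave DCP2 levels of 8.56, 8.40 and 8.66, and the GAPDH siRNA arrays 8.50, 8.27 and 8.43. DCP2 was also below the non-silencing arrays (7.98, 8.22 and 8.21) on the DcpS siRNA arrays, at 7.34, 7.60 and 7.87. DCP2 was therefore called lower by 0.56 (adjusted p = 0.00249, limma) without agreement, since the LOC550643 mean, 8.54, was the highest of the 5 group means. GAPDH read 6.10, 6.11 and 5.69 on its own siRNA arrays and between 7.02 and 7.36 on the other 12. The targeted GAPDH gene thus enters the contrast by design, with a difference of 0.67. No named probe set matched LOC550643 or DCPS, so the silencing of these 2 targets was not analysed here.

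The contrast called 773 of 14884 genes (5.19%), of which 436 were higher (2.93%) and 337 lower (2.26%) with the P-body siRNAs. Agreement of both groups on each side left 617 genes (4.15%), 348 higher (2.34%) and 269 lower (1.81%). Group means agreed at any p for 2490 genes in the higher direction (16.7%) and 2619 in the lower (17.6%). The differences were small. The higher genes differed by 0.20 to 0.91 with a median of 0.39, and the lower genes by -0.92 to -0.20 with a median of -0.35. A difference of at least 0.5 was reached by 64 of the higher and 33 of the lower genes, and a difference of at least 1 by 0. The 6 arrays of one side lay wholly above or below the 6 of the other for 230 genes (1.55%). Of the genes called and agreeing, 56.4% were higher, and this share fell to 36.6% after a further quantile normalization over all 53617 probe sets. That step shifted the P-body minus unrelated differences of all genes by a median of -0.03. The count of 617 was 388 without LOC550643 replicate 3, 356 without Dcp2 replicate 2, 390 without DcpS replicate 1 and 367 without GAPDH replicate 2. Without DcpS replicate 1, GAPDH replicate 2 and non-silencing replicate 1 together it was 298, of which 254 were among the 617.

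The same 4 targeting siRNAs can be paired in 3 ways, and the P-body pairing was not set apart by its number of calls. Pairing LOC550643 with DcpS against Dcp2 with GAPDH called 743 genes (4.99%), with 584 agreeing (3.92%). Pairing LOC550643 with GAPDH against Dcp2 with DcpS called 661 genes (4.44%), with 504 agreeing (3.39%). Without LOC550643 replicate 1 these pairings called 458 and 440 genes. Their groups did not overlap for 250 and 225 genes, beside 230 for the P-body pairing. The groups within a side also differed from each other. LOC550643 and Dcp2 differed for 477 genes (3.2%), and DcpS and GAPDH for 890 (5.98%).

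**Figure D1:**
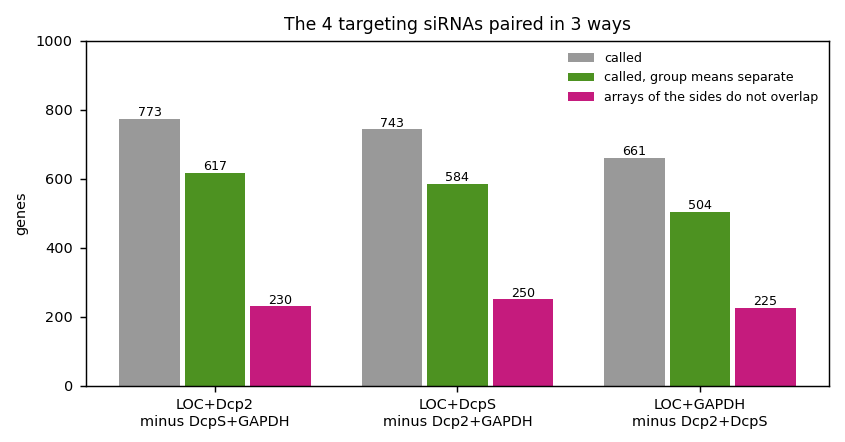
Number of genes (vertical axis) for each of the 3 ways to pair the 4 targeting siRNAs (horizontal axis); grey bars are genes called by limma, green bars those whose group means also separate, and magenta bars those whose arrays do not overlap between the sides. The P-body pairing has 773, 617 and 230 genes, close to the 743, 584 and 250 of the pairing next to it.

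The strictest reading asks that LOC550643 and Dcp2 each differ from DcpS and from GAPDH, in all 4 cross comparisons, with the same sign. The 4 comparisons called 953 (6.4%, LOC550643 minus DcpS), 608 (4.08%, LOC550643 minus GAPDH), 839 (5.64%, Dcp2 minus DcpS) and 415 genes (2.79%, Dcp2 minus GAPDH). Of all genes, 9 (0.0605%) were called in all 4. The 7 higher ones (0.047%) were CHML, SUDS3, EIF5B, C18orf54, FEM1B, ARFGAP3 and CREB1, and the 2 lower ones (0.0134%) were TRIOBP and FRRS1. The other pairings gave 21 and 19 such genes. The count of 9 was 4 without Dcp2 replicate 1, 5 without Dcp2 replicate 2, 3 without Dcp2 replicate 3, 5 without DcpS replicate 1 and 4 without GAPDH replicate 2. For all 9 the pooled contrast itself passed the threshold in each of the 26 alternatives tried.

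The start sites of 4 of these genes are shown as examples of the strictest calls, 2 in each direction; the higher ones are those that hold a GCGCGC match. They are RefSeq sequences of build GRCh38.p14 on the gene's own strand, from 250 bases before to 50 bases after the annotated start. CHML lies at chr1:241640320-241640619 (minus strand), ARFGAP3 at chr22:42857224-42857523 (minus), TRIOBP at chr22:37696798-37697097 (plus) and FRRS1 at chr1:99766586-99766885 (minus). Capitals mark matches on either strand to the 7 motifs searched. These were TGANTCA, a pattern that includes the AP-1 site, the cyclic AMP response element TGACGTCA, the CCAAT box, the CpG-rich hexamer GCGCGC, the cell-cycle homology element TTTGAA, the TATA box TATAAA and the E-box CACGTG.
CHML: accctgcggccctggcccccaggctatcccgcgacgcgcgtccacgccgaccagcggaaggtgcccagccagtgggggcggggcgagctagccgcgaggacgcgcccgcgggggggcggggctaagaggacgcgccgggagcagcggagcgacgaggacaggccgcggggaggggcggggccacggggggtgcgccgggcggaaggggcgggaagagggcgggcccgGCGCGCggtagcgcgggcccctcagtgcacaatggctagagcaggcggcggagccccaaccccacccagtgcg
ARFGAP3: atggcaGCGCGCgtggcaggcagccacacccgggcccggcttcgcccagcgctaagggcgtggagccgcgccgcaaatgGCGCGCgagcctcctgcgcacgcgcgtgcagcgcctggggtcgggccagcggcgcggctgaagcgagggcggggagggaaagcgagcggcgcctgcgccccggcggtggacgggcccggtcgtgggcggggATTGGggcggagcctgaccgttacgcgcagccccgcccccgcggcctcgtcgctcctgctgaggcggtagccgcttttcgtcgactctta
TRIOBP: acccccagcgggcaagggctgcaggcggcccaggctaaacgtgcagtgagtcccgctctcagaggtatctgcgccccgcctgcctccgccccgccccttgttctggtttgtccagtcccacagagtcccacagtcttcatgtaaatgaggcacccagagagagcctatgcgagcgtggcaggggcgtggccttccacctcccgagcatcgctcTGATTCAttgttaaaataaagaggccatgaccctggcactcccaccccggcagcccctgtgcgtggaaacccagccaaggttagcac
FRRS1: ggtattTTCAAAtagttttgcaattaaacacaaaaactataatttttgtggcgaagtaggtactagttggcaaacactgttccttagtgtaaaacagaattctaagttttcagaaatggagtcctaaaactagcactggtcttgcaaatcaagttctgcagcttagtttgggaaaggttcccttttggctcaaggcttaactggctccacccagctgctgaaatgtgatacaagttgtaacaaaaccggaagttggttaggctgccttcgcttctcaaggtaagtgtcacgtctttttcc
The CHML and ARFGAP3 windows hold GCGCGC, and ARFGAP3 also CCAAT on the opposite strand. Of the other 5 higher genes, C18orf54 holds a TTTGAA match and SUDS3, EIF5B, FEM1B and CREB1 hold none of the motifs. The TRIOBP window holds 1 match to TGANTCA with T at the open position, which is not the AP-1 consensus, and the FRRS1 window 1 match to TTTGAA, on the opposite strand. The GC share was 79.3% for CHML, 76.3% for ARFGAP3, 62.3% for TRIOBP and 40% for FRRS1. The 2 higher genes shown were picked for a GCGCGC match, and the other 5 ran from 64.3% to 73.3%. Over the promoters of all called and agreeing genes the median GC share was 64.7% for higher and 66.7% for lower genes. It was 63.3% for all genes. Among the called and agreeing genes with a promoter in the table, 276 higher and 222 lower, CCAAT was present in 42.0% and 33.3%, beside 36.0% of 10749 promoters in all. GCGCGC was present in 30.8% and 36.5% beside 26.7%, TGACGTCA, which CREB1 binds, in 4.35% and 3.6% beside 2.62%, and TGANTCA in 3.26% and 5.41% beside 5.92%. TTTGAA was held by 12.7% and 8.11% beside 11.8%, TATAAA by 7.61% and 4.95% beside 8.49%, and CACGTG by 10.9% and 14% beside 9.02%. These shares are descriptions of letters in a window and were not tested.

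CHML, a Rab escort protein (probe set 16701106), read 8.07, 7.95 and 8.25 with LOC550643 siRNA and 7.91, 8.13 and 8.03 with Dcp2 siRNA. It read 7.01, 7.17 and 7.40 with DcpS siRNA and 7.24, 7.35 and 7.47 with GAPDH siRNA. All 6 P-body arrays lay above all 6 unrelated arrays, with a difference of 0.78 (SE 0.08, adjusted p = 0.000171), a fold of 1.72. The non-silencing arrays gave CHML levels of 7.78, 8.07 and 7.95, next to the P-body side.

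SUDS3, a subunit of the SIN3 histone deacetylase complex (probe set 16757720), read 7.37, 7.26 and 7.27 with LOC550643 siRNA, and 7.27, 7.34 and 7.48 with Dcp2 siRNA. Its levels were 6.44, 6.61 and 6.58 with DcpS siRNA and 6.90, 6.75 and 6.56 with GAPDH siRNA. The sides were separate by 0.69 (adjusted p = 0.000171), and the non-silencing mean of 7.30 equalled the LOC550643 mean to 2 decimals. EIF5B, which joins the ribosomal subunits at the start codon (probe set 16883426), read 8.31, 8.10 and 8.35 with LOC550643 siRNA, and 8.13, 8.03 and 8.25 with Dcp2 siRNA. With DcpS siRNA it read 7.44, 7.71 and 7.61, and with GAPDH siRNA 7.50, 7.51 and 7.34. It was higher by 0.68 (adjusted p = 0.000174), again with the non-silencing mean, 8.07, on the P-body side.

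ARFGAP3, a GTPase activator of the Golgi (probe set 16935703), was the tightest of the set in the GAPDH group, at 8.59, 8.58 and 8.53. Its levels were 9.19, 9.01 and 9.08 with LOC550643 siRNA, 8.95, 9.14 and 9.18 with Dcp2 siRNA, and 7.98, 8.37 and 8.30 with DcpS siRNA. It was higher by 0.70 (adjusted p = 0.00016), and the non-silencing mean of 9.03 was near both P-body means of 9.09. FEM1B, a substrate receptor of a cullin ubiquitin ligase (probe set 16802408), spanned 8.15 to 8.61 on the P-body arrays and 7.38 to 7.91 on the unrelated ones, a difference of 0.69 (adjusted p = 0.00185). C18orf54 (probe set 16852445) spanned 7.62 to 7.97 and 6.86 to 7.32, a difference of 0.64 (adjusted p = 0.00119). CREB1, the cyclic AMP response transcription factor (probe set 16890067), spanned 6.69 to 6.91 and 6.26 to 6.56, a difference of 0.40 (adjusted p = 0.00347). In these 3 genes too the arrays of the sides did not overlap, and the non-silencing mean was nearer to the P-body side.

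TRIOBP, an actin-bundling protein (probe set 16929882), read 5.64, 5.57 and 5.34 with LOC550643 siRNA, and 5.64, 5.68 and 5.64 with Dcp2 siRNA. Its levels were 6.14, 5.91 and 5.95 with DcpS siRNA and 6.05, 6.15 and 6.09 with GAPDH siRNA. It was lower by 0.46 on the P-body side (adjusted p = 0.00112), and the non-silencing arrays, 5.77, 5.81 and 5.78, lay between the sides. FRRS1, a ferric-chelate reductase (probe set 16690036), spanned 7.79 to 8.13 on the P-body arrays and 8.31 to 8.57 on the unrelated arrays. FRRS1 fell by 0.41 (adjusted p = 0.00329), with the non-silencing arrays at 8.05, 8.04 and 8.13.

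**Figure D2:**
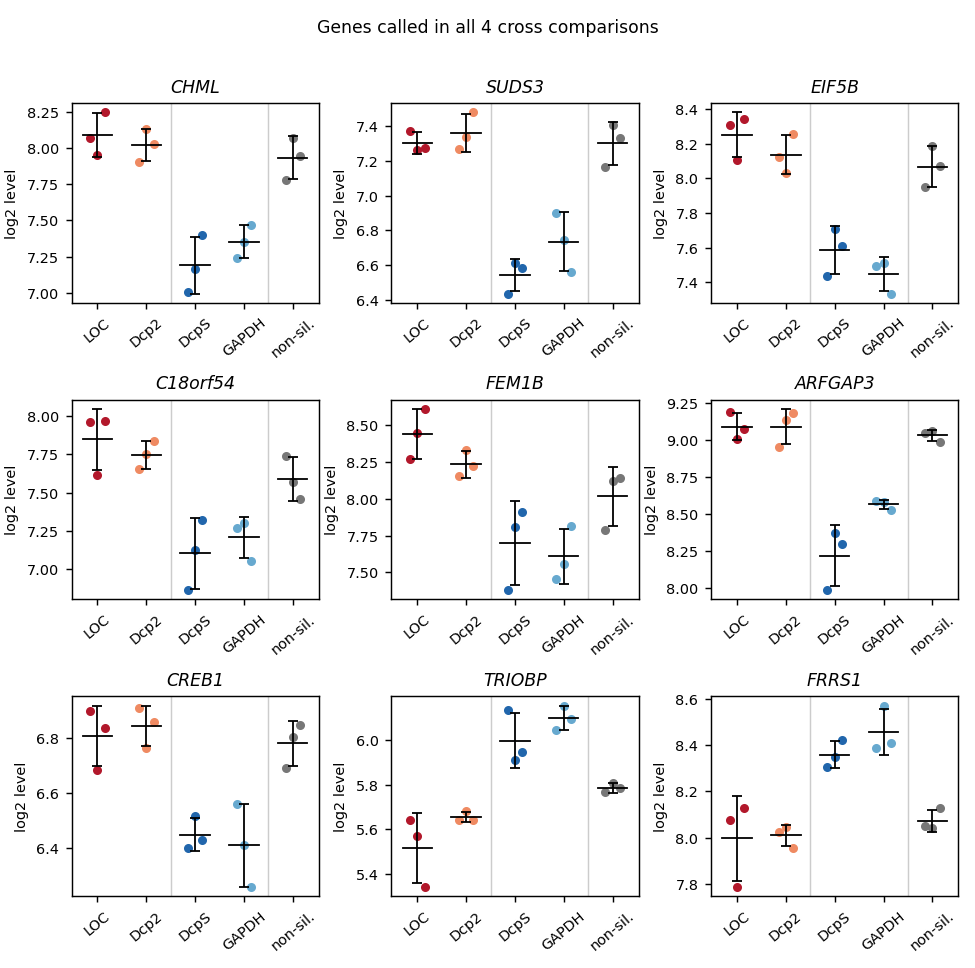
Deposited log2 level (vertical axes, each with its own range that does not start at 0) of the 9 genes called in all 4 cross comparisons, by siRNA group (horizontal axes); points are arrays, horizontal lines group means and bars 1 SD over 3 arrays. The P-body and unrelated arrays do not overlap in any of the 9 panels, and the mean of the non-silencing arrays (grey) lies nearer to the P-body side in all 9, although single non-silencing arrays of FEM1B and C18orf54 do not.

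Non-silencing arrays therefore split the called genes in different ways. Among the 348 higher genes, the non-silencing mean lay beyond the P-body groups for 50, between the sides but nearer to the P-body for 127, nearer to the unrelated for 139 and beyond the unrelated for 32. Among the 269 lower genes the numbers were 36, 96, 115 and 22. These are descriptions, since the genes were chosen on 12 of the same arrays.

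Some genes were higher with the P-body siRNAs and had their non-silencing mean nearer to the unrelated side, among them TRIB1, CCNT1, CCNE1, CDC25A and EXOC8. TRIB1, a pseudokinase that directs substrates to the COP1 ubiquitin ligase, had the largest smallest cross difference of the named genes that agreed, 0.70. Its levels were 6.78, 6.85 and 7.24 with LOC550643 siRNA and 7.22, 7.16 and 6.92 with Dcp2 siRNA. They were 5.83, 6.35 and 6.60 with DcpS siRNA, 5.98, 6.001 and 6.36 with GAPDH siRNA, and 5.90, 6.30 and 6.79 with the non-silencing siRNA. The 6 P-body arrays were above the 6 unrelated ones, by 0.84 (SE 0.15, adjusted p = 0.00489), but 1 non-silencing array reached the P-body range.

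CCNT1, the cyclin of the elongation factor P-TEFb, read 8.56, 8.41 and 8.81 with LOC550643 siRNA and 8.63, 8.71 and 8.62 with Dcp2 siRNA. It read 7.71, 8.16 and 8.30 with DcpS siRNA and 8.01, 7.69 and 8.19 with GAPDH siRNA. The non-silencing arrays gave CCNT1 levels of 7.70, 8.45 and 8.46. Replicates 2 and 3 thus lay within the P-body range, and the place of the non-silencing mean rested on replicate 1. CCNT1 was higher by 0.61 (adjusted p = 0.0179), a call lost without GAPDH replicate 2 (adjusted p = 0.0507). CCNE1, the cyclin that drives entry into S phase, spanned 7.70 to 7.92 on the P-body arrays and 7.09 to 7.54 on the unrelated ones, with a difference of 0.46 (adjusted p = 0.00377). CDC25A, the phosphatase that activates cyclin-dependent kinases, was higher by 0.42 (adjusted p = 0.0117). Most of that difference lay against DcpS, since the smallest cross difference of CDC25A, against GAPDH, was 0.11. EXOC8, a subunit of the exocyst, was higher by 0.50 (adjusted p = 0.026), and its call was lost in 8 of the 15 fits that left out 1 array. The non-silencing arrays gave EXOC8 levels of 7.44, 8.03 and 8.07, with replicate 1 far below the others.

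**Figure D3:**
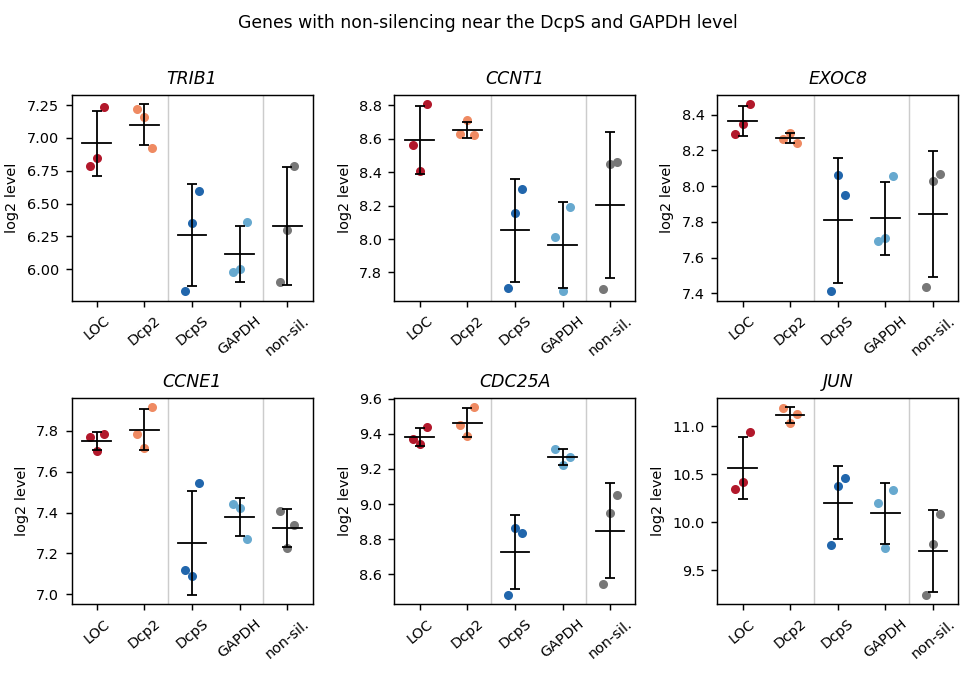
Deposited log2 level (vertical axes, each with its own range that does not start at 0) of TRIB1, CCNT1, EXOC8, CCNE1, CDC25A and JUN by siRNA group (horizontal axes); points are arrays, lines group means and bars 1 SD over 3 arrays. DcpS replicate 1 is the lowest of the DcpS arrays for TRIB1, CCNT1, EXOC8, CDC25A and JUN, and the non-silencing arrays spread widely, from 5.90 to 6.79 for TRIB1.

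The other higher genes with the largest cross differences were of mixed kinds. HCG11, a noncoding RNA, had the largest pooled difference, 0.91 (adjusted p = 0.00694), with the non-silencing mean of 6.29 at the level of the LOC550643 mean of 6.33. DIP2A-IT1, an intronic transcript of DIP2A, was higher by 0.84 (adjusted p = 0.0205), and this call was lost without LOC550643 replicate 1, Dcp2 replicate 2 or GAPDH replicate 2. MAML1, a coactivator of Notch signalling, was higher by 0.48 (adjusted p = 0.00775).

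The lower genes with the largest cross differences were also of mixed kinds. BABAM1, a subunit of the BRCA1-A and BRISC complexes, had the lowest adjusted p of the named genes, 8.77e-05, with a difference of -0.67. It read 8.12, 8.07 and 8.04 with Dcp2 siRNA and 8.67, 8.57 and 8.71 with LOC550643 siRNA, and 8.79 to 9.14 on the unrelated arrays. The Dcp2 arrays were thus the lowest, and the LOC550643 arrays lay between them and the unrelated arrays. NCSTN, a subunit of gamma-secretase, was lower by 0.45 (adjusted p = 0.00147). It spanned 8.67 to 8.96 on the P-body arrays and 9.04 to 9.47 on the unrelated arrays, with a non-silencing mean of 9.03. TRAPPC1, a subunit of the vesicle tethering complex TRAPP, was lower by 0.42 (adjusted p = 0.00265). It spanned 10.50 to 10.70 on the P-body arrays and 10.75 to 11.23 on the unrelated arrays. Its non-silencing mean, 10.62, was level with the LOC550643 and Dcp2 means, 10.61 and 10.59, so the DcpS and GAPDH arrays were the ones apart from it. The sides did not overlap for any of these 3 genes.

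PDGFRL, a receptor-like protein, was lower by 0.49 (adjusted p = 0.00432), and TTC13 by 0.53 (adjusted p = 0.00375). HSD17B8, a mitochondrial steroid and fatty acid dehydrogenase, was lower by 0.42 (adjusted p = 0.0173). The remaining 4 of the 12 lower genes were the sialomucin PODXL2 (-0.41), the deubiquitinase CYLD (-0.38), the urea cycle enzyme ASL (-0.40) and the phospholipid transfer protein PLTP (-0.40). Each of these 4 lost its call in at least 2 of the fits that left out 1 array: PLTP without Dcp2 replicate 2 or DcpS replicate 1, CYLD in 4 fits, PODXL2 in 6 and ASL in 8.

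For decapping and exosome genes the called shares lay near that of all genes. Of 19 decapping and P-body factors measured, 1 was called and agreeing, a share of 5.26% that 1 gene sets, beside 4.15% of all genes called and agreeing. DDX6, the helicase that activates decapping and holds P-bodies together, read 10.12, 9.89 and 10.11 with LOC550643 siRNA and 9.89, 10.05 and 10.07 with Dcp2 siRNA. It read 9.36, 9.56 and 9.48 with DcpS siRNA and 9.88, 9.66 and 9.70 with GAPDH siRNA, and was higher by 0.42 (adjusted p = 0.0033). The non-silencing DDX6 mean, 10.02, lay with the P-body groups, so the DcpS and GAPDH arrays were the ones apart from it. Of the 19, 16 had a positive difference, and the median of the 19 was 0.11 beside -0.0036 for all genes. Averaged over the 19 after centring each on the targeting arrays, the LOC550643 arrays stood at 0.11, 0.06 and 0.11. The Dcp2 arrays, at 0.01, -0.03 and -0.01, lay within the range of the unrelated arrays. Those were -0.19, 0.01 and 0.03 with DcpS siRNA and -0.04, -0.09 and 0.04 with GAPDH siRNA. The non-silencing arrays stood at -0.20, 0.09 and 0.10. The mean includes DCP2, which was silenced on the Dcp2 arrays. The exonuclease XRN1 (-0.05, adjusted p = 0.798), the decapping coactivator DCP1A (0.11, adjusted p = 0.691) and the enhancers EDC3 (0.21, adjusted p = 0.359) and EDC4 (0.11, adjusted p = 0.45) did not pass.

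Of 18 genes of the exosome and cap scavenging, 0 were higher and 1 was lower (5.56%). That gene was EXOSC5, an exosome ring subunit (-0.54, adjusted p = 0.041), whose call was lost in 9 of the 15 fits without 1 array. None of the 5 deadenylation genes or the 6 nonsense-mediated decay factors was called. Among 14 known substrates of nonsense-mediated decay, ATF4 (0.25, adjusted p = 0.0186) and ARHGEF18 (0.23, adjusted p = 0.0389) were higher and EPAS1 (-0.31, adjusted p = 0.0288) was lower. The median over those 14 was 0.14, and 13 were positive. ARHGEF18 lost its call in 10 of the 15 fits without 1 array and EPAS1 in 6, and ARHGEF18 also lost it after quantile normalization or median centring. Among 7 activators of decay and binders of AU-rich elements, CPEB4 (0.40, adjusted p = 0.0279) and PUM2 (0.34, adjusted p = 0.0236) were higher, and these calls were lost in 7 and 6 of those fits. Of 11 stress granule proteins, 0 were called and agreeing, and TARDBP and G3BP1 were called without agreement.

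Among the 27 measured genes of the immediate early list, 5 rose (JUN, MYC, IER3, SGK1 and IER5) and 0 fell, a share of 18.5% higher beside 2.34% and 1.81% of all genes. The list's median difference was 0.20 and 22 of its members were positive. JUN, a subunit of AP-1, read 11.19, 11.03 and 11.12 with Dcp2 siRNA. With LOC550643 siRNA it read 10.35, 10.41 and 10.94, which overlapped the DcpS arrays (9.76, 10.38 and 10.46) and lay just above the GAPDH arrays (10.20, 9.74 and 10.34). JUN was higher by 0.70 (adjusted p = 0.0191), with the Dcp2 arrays highest, and the call was lost without LOC550643 replicate 3 or GAPDH replicate 2 (adjusted p 0.0516 to 0.053).

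MYC showed another arrangement. It read 5.63, 5.71 and 5.79 with GAPDH siRNA, below every other array, and 6.38, 6.26 and 6.36 with DcpS siRNA, overlapping the Dcp2 range of 6.28 to 6.54. The MYC difference of 0.50 (adjusted p = 0.00204) was therefore mainly one from the GAPDH group, and its smallest cross difference was 0.08. SGK1, a serum-induced kinase, was separate for all arrays by 0.38 (adjusted p = 0.00474), at 5.13, 5.11 and 5.32 with Dcp2 siRNA and 4.84, 4.88 and 4.80 with LOC550643 siRNA. IER3 was higher by 0.47 (adjusted p = 0.0248) and IER5 by 0.30 (adjusted p = 0.03), and IER3 lost its call in 5 of the 15 fits without 1 array. FOS (0.23, adjusted p = 0.174), EGR1 (0.22, adjusted p = 0.189), ATF3 (0.16, adjusted p = 0.746) and DUSP1 (0.27, adjusted p = 0.467) did not pass.

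Averaged over the 27 genes after centring each on the 12 targeting arrays, the Dcp2 arrays stood at 0.34, 0.18 and 0.22. The LOC550643 arrays stood at -0.14, -0.09 and 0.08, overlapping the DcpS arrays (-0.31, -0.06 and 0.08). The GAPDH arrays stood at -0.07, -0.23 and 0.01, and the non-silencing arrays at -0.49, -0.22 and -0.14. On this mean the Dcp2 arrays were highest and LOC550643 overlapped both unrelated groups. The lowest arrays of the DcpS, GAPDH and non-silencing groups were again those lowest on the within-group axis. The highest LOC550643 array was the one with that group's highest score, 11.6, against -5.43 and -2.82, and the part of the axis in this list was not tested further. The count of 5 was 3 without LOC550643 replicate 2, Dcp2 replicate 1 or DcpS replicate 1, and 2 without LOC550643 replicate 3 or GAPDH replicate 2.

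The list of KRAB zinc finger genes was the largest and held the most called genes. KRAB genes are best known as repressors that silence retroelements, and not every member of the list carries a KRAB domain. Of 193 measured, 19 rose and 0 fell, which is 9.84% beside 2.34% of all genes. Their median difference was 0.13, and 142 of the 193 were positive. Of the 509 measured genes with a ZNF or ZFP symbol, counted after the values were seen, 33 rose (6.48%) and 2 fell (0.393%). The 33 include the 19 of the list. Since the sets overlap in this way, the shares do not settle whether the rise was particular to KRAB genes. ZNF14 differed by 0.76 (adjusted p = 0.0288), ZNF587 by 0.68 (adjusted p = 0.00264), ZNF571 by 0.65 (adjusted p = 0.00937) and ZNF589 by 0.56 (adjusted p = 0.0119). Several of these lie near the array medians of about 4, where arrays resolve little. ZNF587 read 5.03, 4.87 and 4.85 with LOC550643 siRNA, 4.19, 4.32 and 4.39 with Dcp2 siRNA, and 3.58 to 4.38 on the unrelated arrays. Here LOC550643 siRNA stood apart and Dcp2 siRNA overlapped the unrelated arrays. ZNF14 overlapped between the sides as well, and its call was lost in 7 of the 15 fits without 1 array.

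Averaged over the 193 genes, the LOC550643 arrays stood at 0.16, 0.05 and 0.18 and the Dcp2 arrays at -0.01, 0.01 and 0.01. The DcpS arrays stood at -0.15, -0.03 and 0.02, and the GAPDH arrays at -0.09, -0.11 and -0.05. The non-silencing arrays were at -0.21, -0.01 and -0.07. On this mean LOC550643 siRNA was the highest group and the Dcp2 arrays overlapped those with DcpS siRNA. The lowest arrays of the DcpS and non-silencing groups were those with the lowest scores on the within-group axis. The count of 19 was 8 without DcpS replicate 1. It was 10 without Dcp2 replicate 3, 12 without GAPDH replicate 2, and 11 without LOC550643 replicate 1, LOC550643 replicate 3, Dcp2 replicate 2 or GAPDH replicate 1.

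**Figure D4:**
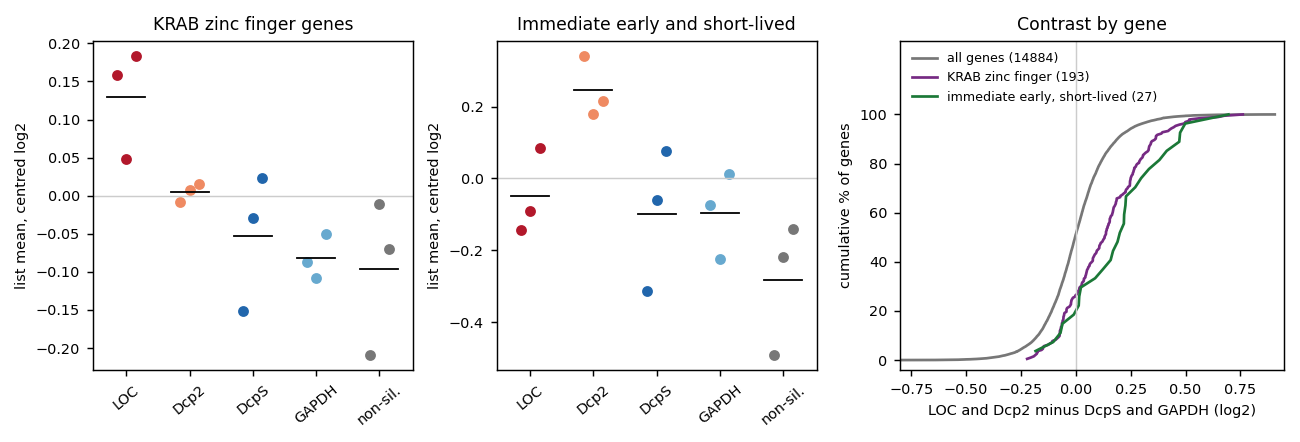
Left and middle, mean over the list of log2 values centred per gene on the 12 targeting arrays (vertical axes) by siRNA group (horizontal axes), with points for arrays and lines for group means; right, cumulative percent of genes (vertical axis) against the P-body minus unrelated difference in log2 (horizontal axis). LOC550643 siRNA is highest for the 193 KRAB genes and Dcp2 siRNA for the 27 short-lived transcripts, and both lists lie to the right of all 14884 genes.

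Among lists of stress, cycle and metabolism the called members numbered at most 3 a list, to be read beside 2.34% of all genes higher and 1.81% lower. Among 24 genes of G1/S and DNA replication, CCNE1, CDC25A and E2F1 (0.30, adjusted p = 0.0146) rose (12.5%) and 0 fell, while 0 of 22 genes of G2 and M phase were called with agreement. Averaged over the 24, the DcpS arrays were low, at -0.17, -0.16 and -0.10. The GAPDH arrays, at 0.06, 0.03 and 0.02, lay with the P-body arrays, which ran from 0.02 to 0.09. Of 13 integrated stress response genes, VEGFA (0.37, adjusted p = 0.0148) and ATF4 rose (15.4%), and VEGFA was also the single called gene of 10 hypoxia genes. Of 10 endoplasmic reticulum chaperone and unfolded protein response genes, 2 fell (20%). ERO1B, an oxidoreductase for disulfide formation, read 5.70, 5.84 and 6.03 with Dcp2 siRNA and 6.51 or more on every other array. HYOU1, a chaperone, read 8.02, 7.96 and 7.86 with LOC550643 siRNA and 8.69 or more on every other array. Each of these 2 differences, -0.64 for ERO1B (adjusted p = 0.000847) and -0.50 for HYOU1 (adjusted p = 0.000445), thus came mainly from 1 siRNA, a different one for each gene.

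INSIG1, which holds back sterol synthesis, was the single called gene of 13 cholesterol genes, higher by 0.66 (adjusted p = 0.0119), and IFIT5 that of 16 interferon genes, higher by 0.43 (adjusted p = 0.0116). The INSIG1 mean was low with DcpS siRNA, at 8.43, while the GAPDH mean of 9.17 was nearer to the P-body means of 9.45 and 9.47. Of 20 autophagy and lysosome genes, NEU1 (0.47, adjusted p = 0.00549) and ULK1 (0.35, adjusted p = 0.0178) rose (10%). Each of these came mainly from 1 siRNA. NEU1 averaged 7.68 with Dcp2 siRNA, but 7.06 with LOC550643 and 6.97 with DcpS siRNA. ULK1 averaged 6.88 with LOC550643 siRNA, but 6.46 with Dcp2 and 6.41 with DcpS siRNA. Of 9 p53 targets, PLK3 rose by 0.33 (adjusted p = 0.0173) and RRM2B fell by 0.38 (adjusted p = 0.00747). In both genes the LOC550643 and GAPDH means were close. PLK3 averaged 5.63 with Dcp2 siRNA, but 5.27 with LOC550643 and 5.19 with GAPDH siRNA. RRM2B averaged 6.97 with DcpS and 6.29 with Dcp2 siRNA, but 6.53 with LOC550643 and 6.62 with GAPDH siRNA. The RNA methyltransferase NOP2 was the called gene of 14 in ribosome biogenesis, higher by 0.28 (adjusted p = 0.0172), and GAPDH itself was the called gene of 9 in glycolysis. No gene was called with agreement among 35 cytoplasmic ribosomal proteins, 8 respiratory chain genes, 8 heat shock genes or 14 apoptosis regulators.

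Agreement of the group means left out some genes in which the groups of a side differed, although ERO1B, HYOU1 and MYC, described above, passed it. Of the genes called without agreement, CDS1 (0.70), CDCA4 (0.63), AGFG1 (0.60), TOP2B (0.57) and TARDBP (0.56) had the largest higher differences. TOP2B, a DNA topoisomerase, read 7.30, 7.26 and 7.26 with GAPDH siRNA, while every other targeting or non-silencing array read 8.30 or more. AGFG1 and CDCA4 were likewise lowest with GAPDH siRNA, with means of 7.64 and 6.58, while TARDBP, an RNA-binding protein, was lowest with DcpS siRNA, with a mean of 7.05. CDS1, a lipid synthesis enzyme, was also lowest with DcpS siRNA (6.62), and its GAPDH mean of 7.84 lay above its Dcp2 mean of 7.69.

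On the lower side, NCS1 (-0.65), SUMF2 (-0.56) and the seryl-tRNA synthetase SARS1 (-0.55) were lowest with LOC550643 siRNA, with means of 6.95, 8.47 and 8.08. NCS1, a calcium sensor, read 6.80, 7.05 and 7.004 there and 7.88 to 8.47 on all other arrays. IMPACT, a translational regulator, was lower by 0.58 (adjusted p = 0.0267), with its highest mean, 8.36, under DcpS siRNA. SUMF2 was also highest with DcpS siRNA, with a mean of 9.83, so that groups of both sides stood apart.

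**Figure D5:**
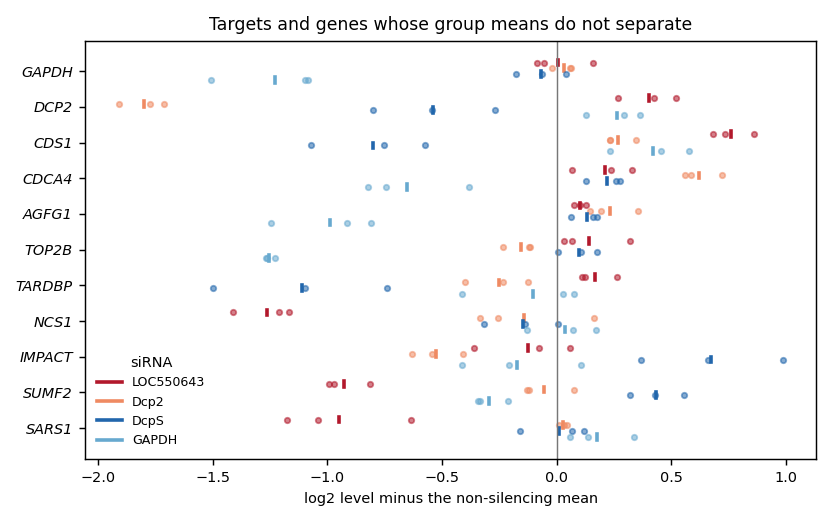
Log2 level minus the non-silencing mean (horizontal axis) for the 2 measured targets and the genes called without agreement (vertical axis); open circles are arrays and thick ticks group means, coloured by siRNA. Single groups stand apart, as GAPDH siRNA does for TOP2B and LOC550643 siRNA for NCS1.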

How the data were processed

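Total RNA of 15 HEK293T samples, 3 for each of 5 siRNA groups, was measured on Affymetrix arrays. The deposited values were taken to be log2 RMA values from the oligo package. This was inferred from their range and from the tool names that the submitters give without versions. The base of the logarithm was taken from their range. Of 53617 probe sets, 16098 had 1 gene name in the platform annotation, giving 14884 genes (779 with several probe sets, of which the one with the highest mean was kept), and 37519 had none and were left out. One mean per group was fitted with limma 3.58.1 in R 4.3.3 on all 15 arrays (10 residual degrees of freedom). Contrasts were adjusted with Benjamini-Hochberg over all genes at 0.05, and the script was tested on simulated data. RMA, where used, equalises the arrays' distributions, so values were read as relative levels. With 3 arrays a group, precision is limited by their number.

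The contrast, the 29 gene lists and the rule for naming genes were chosen with earlier results of these data known. The result of 1 of these lists is not reported here. Genes were named if they were targets, were among the 12 per direction with the largest smallest cross difference (called, agreeing, arrays not overlapping), were called in all 4 cross comparisons, were up to 4 called members of a list, or were among the 5 per direction called without agreement. This rule passed over small RNAs and olfactory receptors, except in lists. List members that did not pass, IER5, G3BP1 and the family members of the closing section were named after their values were seen. Alternatives were another scaling, probe set choice, filter, variance model, covariate, weights, block or set of arrays.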

Additional observations from a re-analysis of the deposited data

Results flagged for a closer look

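Of 128 checks for a single array far from the other 5 on its side, 4 stood out. The cutoff is set for about 1 in 20 when all 6 values come from 1 population. Each side here pools 2 siRNA groups and the genes were selected, so the 4 cannot be read against that rate. TRIOBP read 5.34 on LOC550643 replicate 3, with the nearest P-body array at 5.57. BABAM1 read 8.79 on DcpS replicate 2, with the nearest unrelated array at 9.02. ARHGEF18 read 6.996 on LOC550643 replicate 2, nearest 7.17, and ULK1 read 5.94 on GAPDH replicate 2, nearest 6.32.

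Groups on the same side differed from each other for 23 gene and comparison pairs among the named genes (limma, adjusted p under 0.05). In 11 of these LOC550643 siRNA differed from Dcp2 siRNA. The LOC550643 mean was above the Dcp2 mean by 2.21 for DCP2, 0.58 for BABAM1, 0.78 for ERO1B, 0.62 for ZNF587, 0.43 for ULK1 and 0.49 for CDS1. The LOC550643 minus Dcp2 difference was -0.80 for HYOU1, -0.62 for NEU1, -1.12 for NCS1, -0.87 for SUMF2 and -0.98 for SARS1.

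In the other 12 DcpS siRNA differed from GAPDH siRNA. The DcpS mean was above the GAPDH mean by 1.16 for GAPDH, 0.62 for MYC, 0.87 for CDCA4, 1.12 for AGFG1, 1.35 for TOP2B, 0.85 for IMPACT and 0.73 for SUMF2. The DcpS minus GAPDH difference was -0.80 for DCP2, -0.54 for CDC25A, -0.73 for INSIG1, -1.22 for CDS1 and -1.01 for TARDBP. For GAPDH and DCP2 the larger of these differences are those between a silenced target and another group.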

How the results depend on the processing

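None of the 64 named genes changed direction in the 26 alternatives, and 42 stayed called in every one of them. Quantile normalization gave 428 lower genes called and agreeing, in place of 269. The count called in all 4 cross comparisons was 15 with dim genes left out, 14 with a trended and robust variance and 16 after adjusting for the axis score. With that adjustment pairing LOC550643 with DcpS called 1096 genes and pairing it with GAPDH 1064, both above the 908 of the P-body pairing. An alternative chosen after seeing the data left out the 3 arrays lowest on the axis. It gave 375 genes called, 298 called and agreeing (192 higher, 106 lower), 5 in all 4 cross comparisons, 8 KRAB genes and 3 short-lived transcripts, and MAML1, ATF4, VEGFA, PLK3, E2F1 and ULK1, which had stayed called without any single array, were no longer called. The cause of these changes was not tested.

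Leaving out 1 array in turn gave 456 to 896 genes called, 356 to 706 called and agreeing (210 to 399 higher, 138 to 317 lower) and 3 to 12 in all 4 cross comparisons. Without Dcp2 replicate 2, 456 genes were called, 210 of those agreeing were higher and 146 lower, and without GAPDH replicate 2, 138 were lower. Genes called numbered 509 without LOC550643 replicate 3, 513 without Dcp2 replicate 1, 492 without DcpS replicate 1 and 472 without GAPDH replicate 2. Higher genes numbered 224 without Dcp2 replicate 3, 222 without DcpS replicate 1 and 229 without GAPDH replicate 2. Lower genes numbered 171 and 155 without LOC550643 replicates 2 and 3, 167 without Dcp2 replicate 1, 168 without DcpS replicate 1 and 178 without GAPDH replicate 1. The pairing of LOC550643 with DcpS called 458 to 810 genes and that with GAPDH 440 to 726. KRAB genes called numbered 8 to 20, and short-lived transcripts 2 to 6.

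With the replicate number as a block, 816 genes were called and 649 agreed, 578 of them among the 617, with 11 in all 4 cross comparisons. Correlations of same-numbered deviations ran from -0.198 to 0.254, and 3 of 18 were above 0.1. The labels do not say whether same-numbered samples were handled together, and these correlations cannot decide it.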

Other observations

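Several gene families outside the lists were looked at after their values were seen, so their counts are descriptions, beside 2.34% of all genes called higher and 1.81% lower with agreement. Of 23 small Cajal body RNAs, which guide the modification of spliceosomal RNAs, 6 rose (26.1%) and 0 fell, and 21 differences were positive with a median of 0.25. SCARNA16 was higher by 0.50 (adjusted p = 0.0135, limma) and SCARNA22 by 0.31 (adjusted p = 0.00537). The non-silencing means of SCARNA16 and SCARNA22, 8.62 and 10.52, each lay between that gene's LOC550643 and Dcp2 means. The count of 6 was 3 without LOC550643 replicate 1 and 2 without Dcp2 replicate 2 or DcpS replicate 1. Of 28 subunits of Mediator, the coactivator of RNA polymerase II, 5 rose (17.9%) and 0 fell. MED18 was higher by 0.58 (adjusted p = 0.0225), MED21 by 0.55 (adjusted p = 0.0033) and MED1 by 0.40 (adjusted p = 0.00171). The Mediator median was 0.05, and the count was 2 without LOC550643 replicate 1, Dcp2 replicate 2 or DcpS replicate 1, and 3 without LOC550643 replicate 3, Dcp2 replicate 3, GAPDH replicate 1 or GAPDH replicate 2.

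Of 6 glypicans, cell-surface heparan sulfate proteoglycans, GPC4 (-0.48, adjusted p = 0.00573) and GPC6 (-0.44, adjusted p = 0.00265) fell (33.3%), and 2 to 3 were called lower in every fit without 1 array. Both were highest with DcpS siRNA, at 8.36 for GPC4 and 8.20 for GPC6. Of 10 oligosaccharyltransferase subunits, which attach glycans to nascent proteins, MAGT1 (-0.36, adjusted p = 0.0325), TUSC3 (-0.35, adjusted p = 0.0043) and RPN2 (-0.24, adjusted p = 0.0421) fell (30%) and 0 rose. That count of 3 was 1 without LOC550643 replicate 2, LOC550643 replicate 3, Dcp2 replicate 1, DcpS replicate 1, DcpS replicate 3, GAPDH replicate 1 or GAPDH replicate 2. The directions of these families' medians were the same under quantile normalization and median centring.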
